A study of Mus musculus with 2 samples.

Results

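The cells described here are the T cells and other lymphocytes of the wounded mouse cornea, chosen as all cells that the deposited cell table placed in cluster 16 and whose barcode carried the prefix of the wounded (W) library. There were 215 such cells among 12417 cells of W and 28867 cells in the whole series. The series holds 1 library of unwounded corneas (UW) and 1 library of corneas taken 24 hours after an epithelial wound (W), each pooled from 4 mice. Per the methods, the central epithelium of otherwise untreated mice was scraped off, the stroma spared and the wound treated with ofloxacin. The mice were young males, and the sources used here give no strain or genotype. With 1 library a condition there is no replicate error and no test. Intervals are exact 95% intervals for counting error only (Poisson for summed counts, Clopper-Pearson for shares of cells), and differences between clusters describe these libraries. The deposited clusters were built from the same cells and genes, so a difference between clusters is a description of how they were divided.

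T cells carry an antigen receptor made of an alpha and a beta chain or of a gamma and a delta chain, and both kinds need the CD3 chains to signal. In surface tissues, gamma-delta T cells are known as a rapid source of IL-17A, CD8 T cells as killers that store granzymes, and CD4 T cells as helpers or, with Foxp3, as regulators. Natural killer (NK) cells share the killing machinery of CD8 T cells but have no CD3 on their surface.

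The 4 genes by which the cells were to be recognised were all found, but in unequal shares of the cells. Cd3d, a CD3 chain, had a UMI (a counted RNA molecule) in 168 of 215 cells, 78.1% (72.0 to 83.5). Cd3e, another CD3 chain, had one in 156 cells, 72.6% (66.1 to 78.4). Nkg7, a protein of cytotoxic granules, was found in 96 cells, 44.7% (37.9 to 51.6). Trdc, the constant region of the delta chain, was found in 20 cells, 9.30% (5.78 to 14.001). The name T cell was thus carried by most cells of the cluster, the cytotoxic gene by fewer and the delta chain by few. In cells that should lack these genes the shares were far lower. Cd3d was found in 30 of 8507 epithelial cells of W, 0.353% (0.238 to 0.503), at a median depth of 25553 UMIs a cell against 4411 UMIs in cluster 16. Nkg7 was found in 0.294% and Trdc in 0.0705% of the same epithelial cells. After each cell was thinned to 2000 UMIs, which left out 10 shallower cells of cluster 16, the shares were 59.0% for Cd3d, 48.3% for Cd3e, 39.0% for Nkg7 and 8.78% for Trdc.

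The CD3 genes lie close together on chromosome 9 of GRCm38: Cd3g at chr9:44969572-44980431 on the minus strand, Cd3d at chr9:44981786-44987339 on the plus strand and Cd3e at chr9:44998740-45009627 on the minus strand. Trdc lies at chr14:54142851-54148868, Trac at chr14:54220521-54224206 and Nkg7 at chr7:43437073-43438249, all on the plus strand. The promoters of the 3 CD3 genes are shown because these genes define the cluster. Each is the RefSeq sequence of GRCm38.p6 from 250 bases before to 50 bases after the start, read 5′ to 3′ on the strand of the gene. The start is that of RefSeq, which for Cd3e lies inside the GENCODE gene given above. The capitals mark CAGGTG or its reverse complement CACCTG, an E-box to which E proteins of developing T cells are known to bind.

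Cd3g, chr9:44980382-44980681, minus strand: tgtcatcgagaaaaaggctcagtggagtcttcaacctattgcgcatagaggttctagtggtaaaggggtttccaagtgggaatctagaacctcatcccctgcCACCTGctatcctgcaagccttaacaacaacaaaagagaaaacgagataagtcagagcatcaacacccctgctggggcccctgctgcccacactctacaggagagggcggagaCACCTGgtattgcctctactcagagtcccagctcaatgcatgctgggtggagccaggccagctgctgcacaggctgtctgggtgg
Cd3d, chr9:44981536-44981835, plus strand: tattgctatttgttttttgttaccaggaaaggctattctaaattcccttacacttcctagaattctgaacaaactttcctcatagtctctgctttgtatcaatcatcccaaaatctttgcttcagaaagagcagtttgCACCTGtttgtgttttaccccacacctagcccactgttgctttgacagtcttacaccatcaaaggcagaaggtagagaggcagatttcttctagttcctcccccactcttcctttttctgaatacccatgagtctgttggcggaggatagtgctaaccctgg
Cd3e, chr9:45009562-45009861, minus strand: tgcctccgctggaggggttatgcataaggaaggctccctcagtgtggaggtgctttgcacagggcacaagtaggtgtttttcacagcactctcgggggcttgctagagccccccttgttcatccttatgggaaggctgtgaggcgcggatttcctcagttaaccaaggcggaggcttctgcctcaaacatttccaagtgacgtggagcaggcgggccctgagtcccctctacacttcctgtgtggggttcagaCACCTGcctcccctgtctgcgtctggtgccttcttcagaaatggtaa

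The E-box was found 2 times in the Cd3g window and 1 time each in the Cd3d and Cd3e windows. It was chosen after these sequences had been seen, and it occurred in 20.2% of the 32851 promoters in the RefSeq table. TGTGGT or its reverse complement ACCACA, the core that RUNX factors bind, was found in none of these 3 windows and in 16.8% of all promoters. In the windows of the killing genes the RUNX core was found 1 time for Nkg7, 1 time for Gzma and 2 times for Gzmb. The E-box was also found in the Gzma window, 2 times, and in neither of the other windows of that set. These matches are letters in a window and say nothing of binding.

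The T cell receptor genes were far higher in cluster 16 than in the other immune clusters of W. Trbc2 stood 407-fold above cluster 14 (197 to 1016), and Trac 117-fold above cluster 13 (53.2 to 320). Cd3g, the third CD3 chain, summed to 1207 UMIs, or 1161 CPM (UMIs per 1000000 UMIs of the cluster). It summed to 3 UMIs in cluster 13, 13 UMIs in cluster 14 and 1 UMI in cluster 15. Against cluster 14 that is 329-fold higher (192 to 620). Trac, the constant region of the alpha chain, was at 382 CPM in cluster 16 (345 to 422), 3.27 CPM in cluster 13, 2.44 CPM in cluster 14 and 0 UMIs in cluster 15. Trbc2, a beta chain constant region, was at 774 CPM in cluster 16 and at most 2.21 CPM in the others. Trbc1 and Trbc2 are near-identical, so reads may have been divided between them.

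**Figure D1:**
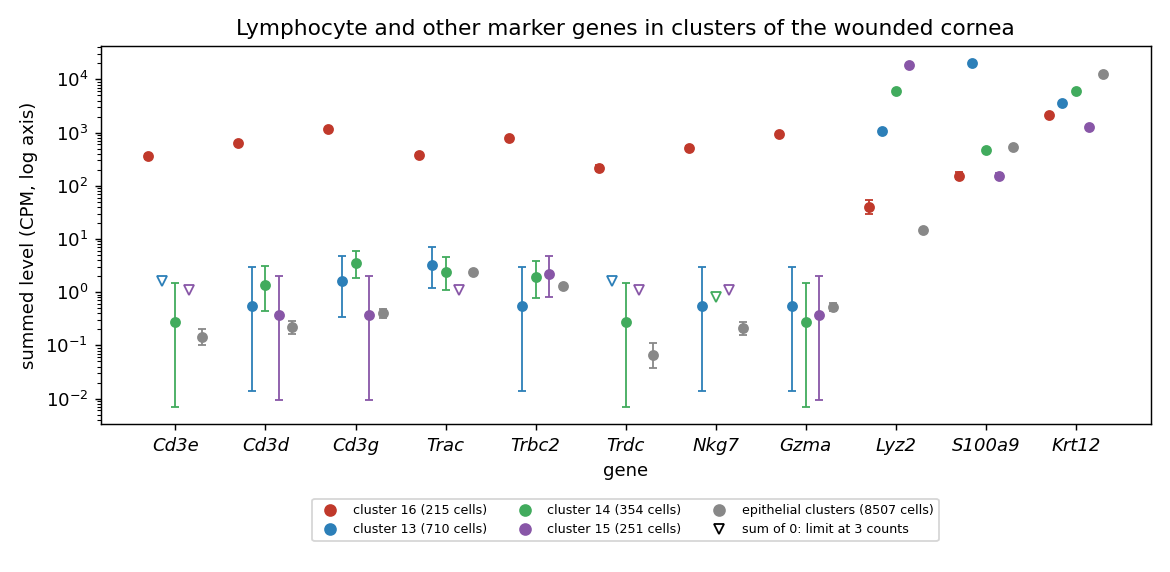
Summed level of each gene in CPM (log axis) in cluster 16 and in the clusters named in the key, all from the wounded cornea. Bars are exact 95% Poisson intervals, and open triangles mark a sum of 0 at the limit of 3 counts. Cd3e, Cd3d, Cd3g, Trac, Trbc2, Trdc, Nkg7 and Gzma are highest in cluster 16, while Lyz2, S100a9 and Krt12 are highest in clusters 15, 13 and the epithelium.

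The cells held RNA of other corneal cells at levels that are given here once. Krt12, the keratin of corneal epithelium, was found in 215 of 215 cells at 2106 CPM, against 12352 CPM in the epithelial clusters. The 10 epithelial markers together made up 1.01% of the UMIs of cluster 16, from 0.221% to 3.53% of a cell, and all 10 were above 0. The 10 neutrophil markers made up 0.0291%, with Retnlg and Ly6g at 0 and S100a9 in 108 cells (50.2%). The 10 monocyte and macrophage markers made up 0.00606%, with Csf1r, Adgre1, Mrc1 and Ms4a7 at 0. The 10 dendritic and Langerhans markers made up 0.0166%, reaching 1.16% of 1 cell, with Cd207, Flt3, Clec9a and Cd209a at 0. The 8 stromal markers made up 0.170%, up to 1.09% of a cell, and all 8 were above 0. Trac was also found in 488 of 8507 epithelial cells, 5.74%, in which it summed to 563 UMIs beside 96 UMIs of Cd3g. In cluster 16 it summed to 397 UMIs beside those 1207 UMIs of Cd3g, so the 2 genes did not stand in the same ratio in both places.

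Within the cluster, Trac and Trdc were found together in 4 cells. Trac without Trdc was found in 147 cells, 68.4% (61.7 to 74.5). Trdc without Trac was found in 16 cells, 7.44% (4.31 to 11.8). Neither receptor gene but a UMI of Cd3d, Cd3e or Cd3g was found in 33 cells, and neither receptor gene nor CD3 in 15 cells. Near the threshold of 1 UMI, 44 of the 151 cells with Trac and 2 of the 20 cells with Trdc held exactly 1 UMI. The median was 2 UMIs of Trac and 9 UMIs of Trdc among the cells that held them. Where at least 2 UMIs were asked, 49.3% of cells held Trac alone, and 17 cells in place of 16 held Trdc alone. With the gamma constant genes counted beside Trdc and the beta constant genes beside Trac, 51 cells in place of 4 held both kinds and 2 cells in place of 16 only the gamma-delta kind.

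The 33 cells with CD3 but neither receptor gene were set beside the 147 cells with Trac. Apart from Trac itself, Gzmb, a granzyme, differed most, at 604 CPM with Trac and 55.3 CPM without (log2 ratio 3.45, 2.39 to 4.77). Gzma, another granzyme, was at 1253 CPM and 118 CPM (log2 ratio 3.40, 2.67 to 4.25). It was found in 28 of 147 cells with Trac and 5 of 33 without, with up to 116 UMIs in 1 cell with Trac and up to 7 UMIs in 1 cell without. Lower with Trac were Zbtb20, a transcriptional repressor (58.7 against 174 CPM), and Kdm7a, a histone demethylase (68.3 against 182 CPM). Ccl4, a chemokine, was also lower with Trac (396 against 837 CPM, log2 ratio -1.08, -1.40 to -0.74). The median depth was 4468 UMIs a cell with Trac and 3714 UMIs without, and whether depth had a part in these differences was not tested.

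The cells were next divided by coreceptor, a division chosen after the data were seen. Cd8a or Cd8b1 without Cd4 was found in 62 cells (28.8%), Cd4 without Cd8 in 49 cells (22.8%), both in 3 cells, and Trdc without either in 20 cells (9.30%). No cell with Trdc held a UMI of Cd4, Cd8a or Cd8b1. The remaining 81 cells (37.7%) held none of these genes. Where at least 2 UMIs were asked, the Cd4 cells were 23 in place of 49, the Cd8 cells 49 in place of 62, and no cell held both. The values below rest on 1 UMI. The 3 cells with both coreceptors were deep, with a median of 9228 UMIs and up to 27089 UMIs in 1 cell. The 81 cells with none of these genes had a median depth of 4150 UMIs. This lay near the 4100 UMIs of the Cd8 cells and the 4751 UMIs of the Cd4 cells, and below the 5674 UMIs of the Trdc cells.

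**Figure D2:**
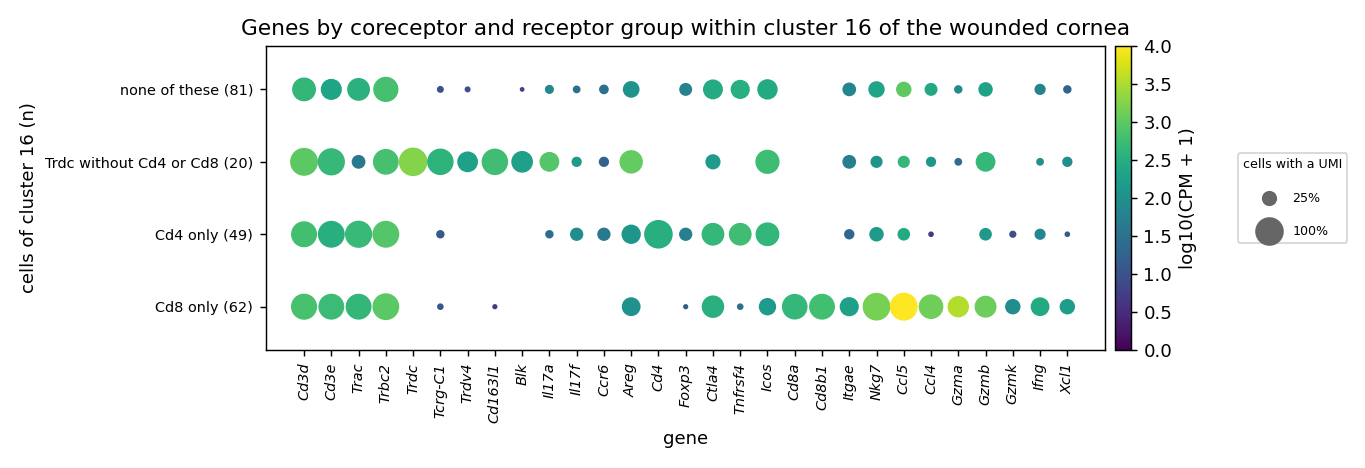
Genes (horizontal axis) in 4 groups of cells within cluster 16 of the wounded cornea (vertical axis, number of cells in brackets). The size of a dot is the share of cells with a UMI and its colour log10(CPM + 1). Granzyme and chemokine genes are strongest in the Cd8 cells, Cd163l1, Blk and Il17a in the Trdc cells, and Tnfrsf4 and Foxp3 in the Cd4 cells and the cells with none of these genes.

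The killing genes lay mostly in the Cd8 cells. Gzma summed to 966 UMIs in the cluster, of which 934 (96.7%) were in 33 of the 62 Cd8 cells, none in the 49 Cd4 cells and 3 in 1 Trdc cell. Its level in the Cd8 cells was 3427 CPM (3210 to 3654), and the cell with most held 116 UMIs. Nkg7 was found in 58 of 62 Cd8 cells, 93.5% (84.3 to 98.2), at 1475 CPM, but in 11 of 49 Cd4 cells and 3 of 20 Trdc cells. Gzmk, a granzyme of another kind, was found in 16 Cd8 cells and 2 Cd4 cells. Gzmb was less restricted: 344 of its 534 UMIs lay in the Cd8 cells, and it was found in 9 of the 20 Trdc cells at 461 CPM (348 to 598). Gzma and Gzmb were found together in 27 cells, Gzma and Gzmk in 10.

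The Cd8 cells also held most UMIs of Ccl5. This chemokine, which draws T cells and monocytes, summed to 3523 UMIs, of which 3050 (86.6%) were in the Cd8 cells, where it reached 11190 CPM (10796 to 11594). Ccl4 stood at 1317 CPM in the Cd8 cells, with 75 of its 359 UMIs in 1 cell, and at 3.94 CPM in the Cd4 cells. Ifng, the type 1 cytokine, was found in 25 Cd8 cells at 268 CPM (210 to 337), of which 26 of 73 UMIs were in 1 cell. It was found in 6 Cd4 cells at 67.0 CPM (39.0 to 107). Xcl1, a chemokine for cross-presenting dendritic cells, was found in 16 Cd8 cells. Tbx21, the transcription factor of type 1 cells, stood at 117 CPM in the Cd8 cells and 15.8 CPM in the Cd4 cells. Itgae, the integrin chain that holds T cells in epithelium, was found in 26 of 62 Cd8 cells (41.9%) and 5 of 49 Cd4 cells (10.2%).

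The IL-17 genes lay elsewhere. Il17a summed to 135 UMIs in 18 cells, and 104 of them (77.0%) lay in 9 of the 20 Trdc cells, where its level was 856 CPM (699 to 1037). The cell with most held 34 UMIs. No Cd8 cell held a UMI of Il17a, and no cell held Il17a together with Ifng, which was in 42 cells. Il17f, its close relative, was divided otherwise, with 22 of 48 UMIs in 9 Cd4 cells and 17 UMIs in 2 Trdc cells. Cd163l1, a scavenger receptor known from IL-17-producing gamma-delta T cells, was found in 18 cells, 17 of which held Trdc (71 of 72 UMIs). Blk, a kinase of the same cells, was found in 12 cells, 11 of them with Trdc. Trdv4, a variable segment of the delta chain, was found in 10 of the 20 Trdc cells. Il23r, a receptor chain for IL-23, reached 4 UMIs in the whole cluster.

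Areg, a growth factor that is known to act on epithelium, was found in 86 cells. Of its 285 UMIs, 134 (47.0%) lay in the Trdc cells, at 1103 CPM (924 to 1306), but 73 of those lay in 1 cell. A further 52 UMIs lay in 1 of the 3 cells with both Cd4 and Cd8. It was at 103 CPM in the Cd8 cells and 126 CPM in the Cd4 cells, with a median of 1 UMI in the cells that held it. The epithelial clusters themselves stood at 643 CPM, with a UMI in 86.5% of cells. The Cd8 and Cd4 cells were thus at 15.99% and 19.6% of the epithelial level of Areg, and at 17.6% and 17.9% of that of Krt12. Whether their Areg was carried over from epithelium was not tested, and it is not read as expression. The Trdc cells were at 172% of the epithelial level of Areg and 14.8% of that of Krt12. That 172% includes the 1 cell with 73 of their 134 UMIs, and the level without it was not computed.

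Of the gamma chain constant genes, Tcrg-C1 lay in the Trdc cells (46 of 55 UMIs), while Tcrg-C2 lay mostly in the Cd8 cells (35 of 49 UMIs). These genes are near-identical copies and the division of reads between them is uncertain.

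**Figure D3:**
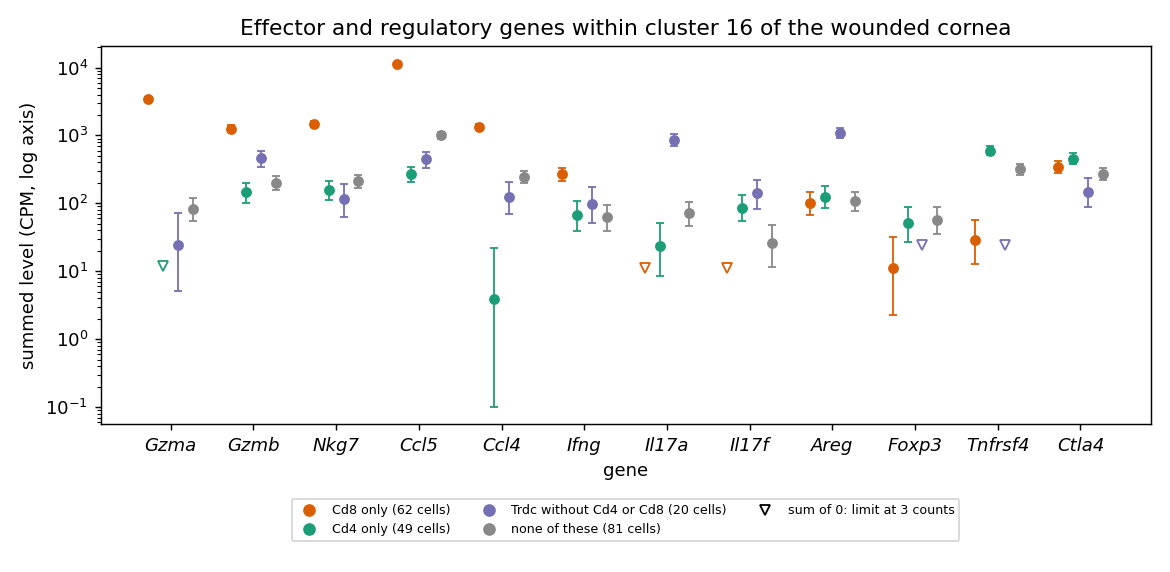
Summed level in CPM (log axis) of effector and regulatory genes in 4 groups of cells within cluster 16 of the wounded cornea. Bars are exact 95% Poisson intervals, and open triangles mark a sum of 0 at the limit of 3 counts. Gzma stands at 3427 CPM in the Cd8 cells and at 0 in the Cd4 cells, and Il17a at 856 CPM in the Trdc cells and at 0 in the Cd8 cells.

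Regulatory genes were not divided in 1 way between the groups. Foxp3, the factor that defines regulatory T cells, was found in 27 cells, of which 9 were Cd4 cells, 1 a Cd8 cell, 3 cells with both coreceptors, 14 cells with none of these genes and none a Trdc cell. Of the 27, 25 held Tnfrsf4, 25 held Tnfrsf18 and 24 held Ctla4, genes that regulatory T cells are known to share. Among the 188 cells without Foxp3, 44 held Tnfrsf4. After thinning to 2000 UMIs, Tnfrsf4 was found in 24.4% of cluster 16 and 0.354% of epithelial cells, Tnfrsf18 in 25.9% and 1.13%, and Ctla4 in 40.0% and 0.0118%. Ikzf2, another such gene, was found in all 27 cells, but epithelial cells hold it too, at 282 CPM. The Cd4 cells stood at 141% of that level and the Cd8 cells at 16.9%, beside 17.9% and 17.6% for Krt12. Tnfrsf4, a costimulatory receptor, was at 599 CPM in the Cd4 cells (508 to 702), 29.4 CPM in the Cd8 cells and 0 UMIs in the Trdc cells. Ctla4, a checkpoint receptor, was more even, at 457 CPM in the Cd4 cells, 349 CPM in the Cd8 cells and 148 CPM in the Trdc cells. Icos, a costimulatory receptor, was at 422 CPM in the Cd4 cells, 150 CPM in the Cd8 cells and 568 CPM in the Trdc cells. Ccr6 was found in 9 of the 49 Cd4 cells and in none of the Cd8 cells. Il10 reached 5 UMIs in the cluster and Il2 1 UMI.

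The 15 cells with neither a receptor gene nor CD3 were mixed. Ptprc, the pan-leukocyte CD45, was found in 10 of them, and 7 had fewer than 2000 UMIs. Chosen after the values were seen, 4 of the 15 held both Fcer1g and Tyrobp, signalling adaptors of NK cells and myeloid cells, and no mast cell gene. All 4 also held Nkg7 (2 to 10 UMIs), Gzma (1 to 18), Klre1 (1 to 6), Klrk1 (2 to 5) and Il2rb (4 to 10). Another cell, of 6021 UMIs, held 17 UMIs of Gata3 and 5 UMIs of Il1rl1, genes of type 2 lymphocytes, and no Ptprc. A further cell, of 11946 UMIs, held every UMI of 4 mast cell proteases in the cluster: 390 of Mcpt4, 340 of Cma1, 305 of Cpa3 and 98 of Tpsb2. It also held 254 of the 276 UMIs of Ccl7, 146 of the 207 UMIs of Ccl2 and none of Ptprc. The other 214 cells held no UMI of the 4 proteases.

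Across all genes, cluster 16 was set beside each of the other immune clusters of W. A gene was counted as higher or lower where it differed at least 2-fold and had at least 20 UMIs in both clusters together. Against cluster 13, in which neutrophil genes such as Csf3r were high, 28.1% of 8683 genes were higher and 13.4% lower. Against cluster 14, in which the antigen-presenting gene H2-Eb1 was high, 15.3% of 10084 genes were higher and 15.9% lower. Against cluster 15, in which the macrophage gene Lyz2 was highest, 20.9% of 9250 genes were higher and 15.7% lower. These splits depended on scaling: with TMM factors 43.1% of the calls against cluster 13 were higher in place of 67.7%, and the values for clusters 14 and 15 were 29.6% in place of 49.0% and 38.3% in place of 57.1%. The median over all genes was 0.41, 0.13 and 0.22 on the log2 scale for clusters 13, 14 and 15, and TMM moved it by -0.45, -0.33 and -0.35. With the factors of DESeq2 it moved by -0.42, -0.16 and -0.26, and the calls that were higher made up 45.0%, 39.3% and 42.8%.

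The lists of lymphocyte genes are given as a description. A gene near 0 in the other clusters reached 20 UMIs only through cluster 16, so that the filter fixed many of these calls and they support nothing. Of 23 genes of CD3 and receptor signalling, 21 were higher than in cluster 13, all 23 than in cluster 14 and 22 than in cluster 15, with median log2 ratios of 6.24, 6.82 and 7.53. The exceptions were Ptprc and Lcp2, an adaptor that myeloid cells also use. Of 23 cytotoxic and NK genes in the table, 16 had enough counts, of which 14, 13 and 14 were higher, and Fcer1g and Tyrobp were lower in each comparison. Gzma was at 930 CPM in cluster 16 and held 1 UMI in each of clusters 13, 14 and 15. Of 10 regulatory genes, 9 were higher in each comparison, and Il10, at 4.81 CPM, was not among them. Ccl5 was higher than in cluster 14 (5.64-fold, 5.34 to 5.95) and cluster 15 (5.38-fold, 5.07 to 5.70), clusters that hold it at 602 and 631 CPM.

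The other lists were less uniform, and their counts stand beside the shares of all genes that were higher (28.1%, 15.3% and 20.9% for clusters 13, 14 and 15) or lower (13.4%, 15.9% and 15.7%). The limit of the filter given above holds for these and all later lists. A gene near 0 in the other cluster, such as Il17a, could only be called higher, and such calls support nothing. Of the type 17 genes, 16 of 17 were higher than in cluster 13, 14 of 18 than in cluster 14 and 13 of 17 than in cluster 15. Of the chemokine receptors, 7 of 9 were higher and 2 lower than in cluster 13, 4 of 11 higher and 5 lower than in cluster 14, and 5 of 10 higher and 3 lower than in cluster 15. Chemokines went mostly the other way, with 2 of 9 higher in each comparison and 5, 7 and 7 lower. Ligands that other cells offer to lymphocytes were lower for 10 of 14, 10 of 15 and 10 of 13 genes. Cell cycle genes were higher for 2 of 12, 3 of 11 and 9 of 10 genes and lower for none, with median log2 ratios of -0.09, 0.49 and 1.37. All 10 neutrophil markers were lower than in cluster 13, and all 10 monocyte and macrophage markers lower than in clusters 14 and 15. Genes known to respond to tissue dissociation were lower for 4, 4 and 2 of 14 genes and higher for 1, 0 and 2.

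**Figure D4:**
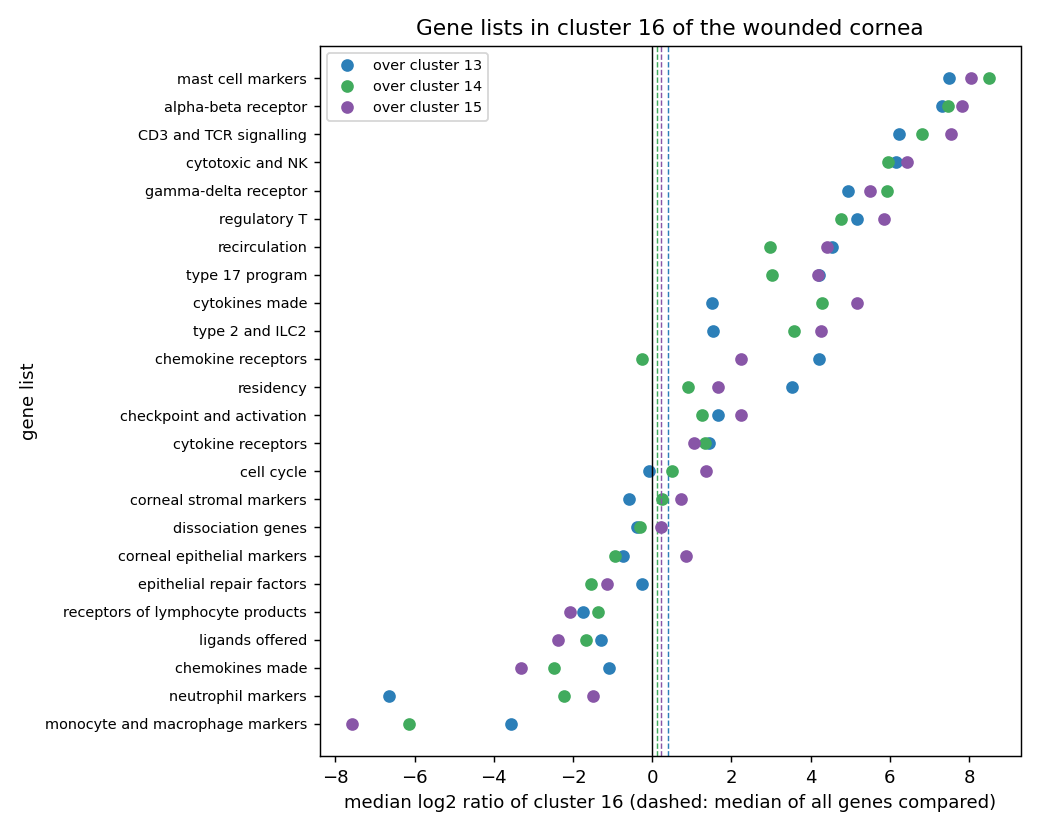
Median log2 ratio of cluster 16 over clusters 13, 14 and 15 of the wounded cornea (horizontal axis) for lists with at least 4 genes of 20 UMIs (vertical axis). Dashed lines are the medians over all genes compared, 0.41, 0.13 and 0.22. Receptor, cytotoxic and regulatory lists lie highest beside the mast cell list, which rests on 1 cell, while the neutrophil list lies lowest over cluster 13 and the monocyte and macrophage list lowest over clusters 14 and 15.

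By the rule for genes that set the cluster apart, the 25 with the largest smallest ratio over the other 3 clusters held Gzma, Cd3d, Nkg7 and Trbc2. A gene with a sum of 0 in another cluster enters at its bound of 3 counts, so the order among the 25 is not read. They held the receptor and signalling genes Cd3g, Cd3e, Trbc1, Trac, Trdc, Cd2, Thy1, Skap1, Sh2d2a, Cd28, Cd8a and Cd8b1. They also held Gzmb, Icos, Ctla4, Il2rb, Gimap4 and Cxcr6, and the mast cell genes Mcpt4, Cma1 and Cpa3 of the 1 cell named above. Il2rb, the shared receptor chain for IL-2 and IL-15, was found in 142 cells at 302 CPM and held no UMI in clusters 13 and 15 and 2 UMIs in cluster 14. At the other end, the lowest genes against cluster 13 were not those against clusters 14 and 15, which shared Ccl6 and C1qc. Against cluster 13 the lowest were Hp, G0s2, Ankrd33b, Csf3r and Arg2, with 1 or 2 UMIs each in cluster 16. Against cluster 14 they were Ccl6, C1qc, H2-Eb1, C1qa and H2-Aa, of which H2-Eb1 stood at 4644 CPM in cluster 14 and 10.6 CPM in cluster 16. Against cluster 15 they were Ccl6, C1qc, Fcgr1, Pf4 and Ccl9.

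Of the homing genes, Cxcr6, the receptor for CXCL16, was found in 96 cells at 292 CPM, and in 12 of the 20 Trdc cells, 32 of the 62 Cd8 cells and 23 of the 49 Cd4 cells. It held no UMI in clusters 13 and 15 and 6 UMIs in cluster 14. Cxcl16 itself was at 350 CPM in cluster 14, 310 CPM in cluster 15 and 81.3 CPM in the epithelial clusters. Ccr2, the receptor for CCL2, was at 152 CPM in cluster 16, within 2-fold of cluster 14 (111 CPM) and cluster 15 (170 CPM), and Ccl2 was highest in cluster 15 (5168 CPM). Cxcr3, the receptor for CXCL9 and CXCL10, was found in 51 cells at 71.2 CPM, and Cxcl10 stood at 641 CPM in cluster 14 and 807 CPM in cluster 15. Of the 6 recirculation genes, 4, 3 and 4 were higher than in clusters 13, 14 and 15 and 2, 1 and 0 lower. Of the 9 residency genes, 6, 4 and 6 were higher and 1, 1 and 0 lower. Of all genes, 28.1%, 15.3% and 20.9% were higher and 13.4%, 15.9% and 15.7% lower. Among the former, S1pr1, the receptor by which lymphocytes leave tissue, was found in 49 cells at 74.1 CPM and Klf2, a factor of recirculating T cells, in 89 cells at 302 CPM. Ccr7, a receptor for lymph node homing, was found in 14 cells. Among the residency genes, Cd69, a gene of activated and resident cells, was found in 126 cells at 415 CPM. Ccr7 was 2.91-fold higher in cluster 14 than in cluster 16.

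Of 17 cytokine receptor genes, 10, 11 and 9 were higher than in clusters 13, 14 and 15 and 3, 1 and 0 lower, where 28.1%, 15.3% and 20.9% of all genes were higher. Il7r, for IL-7, was found in 104 cells at 248 CPM, against 2.18, 105 and 149 CPM in those clusters. Il18r1, for IL-18, was found in 73 cells at 107 CPM against at most 6.54 CPM in the other immune clusters. Il1r1 was found in 16 cells. Il1b stood at 2736 CPM in cluster 13 and 7.70 CPM in cluster 16. Ifngr1, a receptor chain for interferon gamma, was at 558 CPM in cluster 16 and 172 CPM in the epithelial clusters. The receptor chains for IL-17A, Il17rc and Il17ra, stood at 52.8 CPM and 6.23 CPM in the epithelial clusters. Ltb, a cytokine of lymphocytes, was found in 133 cells at 451 CPM and stood 3.56-fold over cluster 13 (3.03 to 4.18), 37.0-fold over cluster 14 (27.2 to 51.4) and 306-fold over cluster 15 (119 to 1127).

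In W, 215 of 12417 cells were in cluster 16, a share of 1.73% (1.51 to 1.98). In UW it was 7 of 16450 cells, or 0.0426% (0.0171 to 0.0877). Of these, 203 cells of W and 4 cells of UW passed a stricter filter of 1000 genes or more and a mitochondrial share of 5% or less. With 1 library each, this difference has no replicate check. As a share of the immune clusters 13 to 16, the 2 values were 14.1% in W (12.3 to 15.9) and 46.7% in UW, the latter resting on 7 of 15 cells (21.3 to 73.4). Of 52 barcodes found in both libraries, 1 belonged to cluster 16 of W.

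The 7 cells of UW can be listed singly. Trdc was found in 4 of them, with 11, 11, 15 and 23 UMIs, and Trdv4 in 4. As a share of cluster 16, these 4 cells make 57.1% (18.4 to 90.1), where W had 9.30%. Cd163l1 was found in 3 cells of UW and Blk in 3, with at most 2 UMIs each. Trac was found in 2 cells. None of the 7 held a UMI of Cd4, Cd8a, Cd8b1, Nkg7, Foxp3 or Il17a, which by the exact interval allows a share of cells with a UMI of up to 40.96% for each, at a median depth of 2979 UMIs. There was 1 cell with 3 UMIs of Il17f. Gzma was found in 1 cell, with 28 UMIs, and Ccl5 in 2 cells, with 43 and 46 UMIs.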

How the data were processed

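Single-cell 3′ RNA-seq (10x Genomics) was made from 1 pooled library of UW and 1 of W corneas, each of 4 mice. Per the labels, Cell Ranger 3.1.0 and Seurat were used. The submitters' notes name mm9 and the methods mm10, and gene positions were taken here from GENCODE M21 of GRCm38. The authors deposited raw UMI counts for 28867 cells and 20198 genes and a cell table with the cluster of each cell and doublet calls. These cells are fewer than the study's text counts. The methods state filters on genes and mitochondrial share per cell and the removal of doublets. In the files the genes of a cell numbered 501 to 7570, its mitochondrial share reached 9.99%, and 469 cells bore a doublet call of a first run, none of them in cluster 16 of W. UMI sums equalled those of the cell table in all 28867 cells.

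Counts were summed over the cells of a group and given as CPM of 1000000 UMIs. Cluster 16 of W held 1039178 UMIs, from 1201 to 27089 a cell. The other immune clusters held 1835459 (13), 3685093 (14) and 2710129 UMIs (15). Ratios have exact conditional binomial intervals. A sum of 0 was set to 3 counts, which makes a fold a bound. Of 329 listed genes 311 were in the table. Genes were named where they were on a list, among the 25 with the largest smallest ratio over clusters 13, 14 and 15 or the 5 lowest in each comparison (at least 100 CPM and 20 UMIs, without mitochondrial, haemoglobin and ribosomal protein genes), or among the 10 at either end between receptor classes of at least 20 cells. The cells and lists were chosen with earlier results of these data known. Alternatives were the TMM factors of edgeR 4.0.16 and the size factors of DESeq2 1.42.0 (R 4.3.3), other filters on genes and cells, and thinning to 2000 UMIs. Scripts were tested on simulated data.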

Additional observations from a re-analysis of the deposited data

How the results depend on the processing

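No paired analysis was possible because each condition is 1 library. Counts of genes moved with the setting. Higher than in clusters 13, 14 and 15 were 1393, 949 and 1211 genes with TMM. With DESeq2 size factors 1451 were higher and 1773 lower than in cluster 13, and with TMM 1836 were lower. Without a filter 3802, 2919 and 3714 were higher. At 100 CPM or more 472, 287 and 368 were higher and 370, 308 and 413 lower. Thinned to 2000 UMIs, 935 were higher and 852 lower than in cluster 14, and 1084 and 951 than in cluster 15. Leaving out the 1 mast gene cell or the cells without CD3, both chosen after seeing the data, kept each count within 1.5 times. Only 43 of 215 cells held at most 1% of UMIs from epithelial, stromal, neutrophil and monocyte markers, and without the others these counts also stayed within 1.5 times, with 53.6%, 42.0% and 47.1% of the calls against clusters 13, 14 and 15 higher in place of 67.7%, 49.0% and 57.1%.

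With clusters 13 to 16 as the denominator, cluster 16 was 14.1% of W and 46.7% of UW. The receptor classes depended on depth. Trac alone was found in 49.3% of cells with at least 2 UMIs and 47.3% after thinning, and CD3 without a receptor gene in 34.9% and 37.6%. Both receptor genes were found in 0.465% with at least 2 UMIs. With gamma and beta constant genes added, Trdc alone was 0.930%, both kinds 23.7% and CD3 alone 0.465%. In the division by coreceptor, whose alternatives were also chosen after seeing the data, Cd8 cells were 22.8% and Cd4 cells 10.7% with at least 2 UMIs, Cd4 cells were 16.6% after thinning, cells with both were 0% in either, and cells with none 58.1% and 50.2%. Thinning gave 48.3% for Cd3e and 59.0% for Cd3d. Counts of genes were taken as moved beyond 1.5 times and other values outside their main counting interval. By this, 38 of the main shares and counts moved and 66 did not, as did 81 and 223 of the ratios of single genes. A change of sign was looked for only where the main ratio differed at least 2-fold, and none was seen. Most of these ratios were of the 25 genes picked for large ratios, and a sum of 0 entered at 3 counts. The lack of a change thus says little of how stable the ratios were. The balance of calls did turn. Against clusters 13 and 15 most calls became lower with either scaling, against cluster 15 also at 100 CPM or more and without the cells rich in other markers. Against cluster 14 most became higher without a filter (61.3%) and after thinning (52.3%). The low counts of Trdc, Foxp3 and Il17a cells limit what can be said of each, and no difference between W and UW can be told apart from one between 2 libraries.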
